A study of Mus musculus with 34 samples.

Results

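Glutathione transferases of the alpha, theta, pi, zeta, omega and microsomal classes were read in the livers of 34 mouse pups. Of the 9 genes with a probe, 3 (Gstp1, Gstt2 and Mgst1) were higher in hypothyroid than in control pups at an adjusted p below 0.05. Each passed in 1 sex only, Gstt2 in males and the others in females, and which of them passed changed with the processing. Of all named genes, 0.345% passed in at least 1 sex, in either direction. The genes were taken by name (Gsta2, Gsta3, Gsta4, Gstt1, Gstt2, Gstp1, Gstk1, Gstz1, Gsto1 and Mgst1), and a probe was counted for a gene when its RefSeq accession mapped to that symbol. Of the 10 genes, 9 had at least 1 such probe and 12 probes were found in all, out of 41174 probes and 16535 named genes on the array. No probe mapped to Gstk1, the kappa class enzyme, which is therefore not analysed here.

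Pups of C57BL/6 mice were collected on postnatal day (PND) 15 in 4 treatment groups of each sex. The hypo pups (4 males, 5 females) were made hypothyroid through the dam, whose drinking water held 0.05% methimazole and 1% perchlorate for 3 days, starting on PND 12 by the study's methods and PND 13 by the series' description, and they were injected with saline. The hypo+ pups (4 males, 3 females) had the same exposure. By the study's methods, injected pups with serum T4 close to or slightly above control were kept, and those with higher T4 set aside. By its results, serum T4 of the hypo+ pups was significantly above control, and the pups set aside were all males. The hypo+ injection was 20 µg T4 and 2 µg T3 per 100 g body weight, given 4 h before collection. The hyper pups (5 males, 5 females) had no goitrogen and received 50 µg T4 and 5 µg T3 per 100 g at the same time, and control pups (4 males, 4 females) had no goitrogen and received saline. Each array compared 1 pup's liver RNA, labelled with Cy5, with a universal mouse reference RNA labelled with Cy3, so each value is the log2 ratio of pup over reference. In these bulk liver samples, a change in the share of a cell type and a change in RNA per cell cannot be told apart.

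Glutathione transferases join the tripeptide glutathione to reactive electrophiles, which makes them easier to excrete, and liver is one of the tissues richest in them. The cytosolic enzymes fall into classes by sequence, whereas Mgst1 sits in the membranes of the endoplasmic reticulum and mitochondria. Many of the genes are known targets of NRF2, a transcription factor that binds antioxidant response elements, and thyroid hormone receptors bind half-sites spelled AGGTCA.

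The sequences before the transcription start of Gstp1 and Mgst1 are shown because both genes were called in hypo females, and that of Gsta3, which was not called, because its window holds the core TGACNNNGC that the Mgst1 window also holds. They are the 250 bases upstream of the start in RefSeq's GRCm38.p6 annotation, 5′ to 3′ on the gene's strand, at chr19:4037913-4038162 (minus strand) for Gstp1, chr6:138140277-138140526 (plus strand) for Mgst1 and chr1:21240335-21240584 (plus strand) for Gsta3. Capitals mark the cores TGACNNNGC or TGAGNNNGC on either strand.
Gstp1: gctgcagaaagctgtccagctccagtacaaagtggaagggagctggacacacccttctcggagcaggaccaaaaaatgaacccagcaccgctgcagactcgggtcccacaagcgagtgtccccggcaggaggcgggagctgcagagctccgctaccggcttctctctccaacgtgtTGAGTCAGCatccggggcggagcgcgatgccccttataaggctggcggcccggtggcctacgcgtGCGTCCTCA
Mgst1: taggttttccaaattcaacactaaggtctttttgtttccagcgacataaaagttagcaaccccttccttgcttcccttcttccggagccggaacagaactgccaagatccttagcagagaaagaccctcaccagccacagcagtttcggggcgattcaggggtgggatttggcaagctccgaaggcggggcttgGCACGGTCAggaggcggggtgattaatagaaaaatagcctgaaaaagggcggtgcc
Gsta3: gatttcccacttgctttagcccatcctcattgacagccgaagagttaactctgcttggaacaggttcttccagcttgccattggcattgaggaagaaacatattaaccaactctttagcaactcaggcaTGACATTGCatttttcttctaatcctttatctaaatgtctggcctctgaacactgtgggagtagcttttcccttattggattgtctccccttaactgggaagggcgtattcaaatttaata

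Windows were matched for 8 of the 10 genes (10 windows, each from 250 bases before to 50 after a start), and Gsta4 and Gstt2 were not among them. The core TGACNNNGC of the antioxidant response element occurred once in the Gsta3 window, with its first base at -121 from the start, and once in a Mgst1 window, on the opposite strand at -56. It was found in 12.4% of all 32817 windows. The other spelling, TGAGNNNGC, was searched after the windows had been read, and occurred in the windows of Gstp1, Gstt1 and Gstz1 and in 17.7% of all windows. The match TGAGTCAGC began at -74 from the Gstp1 start. The half-site AGGTCA occurred in the window of Gstk1 alone among the 8 genes (16.3% of all windows), and a direct repeat of this half-site with 4 bases between was in none of them (0.0152% of all windows). A match describes the letters and not a bound site.

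The state of the hypo pups was checked on Dio1, the deiodinase whose transcription follows thyroid hormone, which fell by 1.46 ± 0.20 on the log2 scale (SE) in males (adjusted p = 0.0124) and fell by 1.77 ± 0.27 in females (adjusted p = 0.00923). Differences are log2 fold-changes from limma, fitted separately in each sex, and a probe was called when its p, adjusted by Benjamini-Hochberg over all 41174 probes, was below 0.05. Hepatocyte markers summed to between 1.91e+06 and 2.07e+06 units of normalized Cy5 signal on every array. That signal was quantile-normalized between arrays, which makes the highest values of all arrays alike, so this sum could hardly show a change in hepatocyte share. Markers of pancreatic acinar cells (13 of 16 listed genes had a probe) stood apart in 3 control pups, 2 males and 1 female, at 25351 to 117213 against 5026 to 11574 in the other 31 pups. Of those 13 genes, 0 were called in any comparison. The list's median log2 fold-change of hypo over control was -2.01 in males and -0.74 in females. Without these 3 pups 2 genes were called for hypo against control (Gstp1 and Mgst1), and 0 for hyper or hypo+ against control.

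Hypo pups differed from control pups by 3 days of methimazole and perchlorate given through the dam. Loss of hormone and other effects of these goitrogens cannot be told apart in this comparison. In it 1 of the 12 probes was called in males (0.0971% of all probes were called) and 3 of 12 in females (0.155%). All of the called probes were higher in hypo pups. By gene, 3 of 9 were called in at least 1 sex, against 0.345% of named genes. In males 7 of 12 probes had an unadjusted p below 0.05, all higher (2.68% of all probes were higher at that level), and in females 7 of 12 (2.38%). The median log2 fold-change of the 12 probes was 0.34 in males and 0.33 in females, beside medians of 0.0021 and -0.0016 over all probes. For the 10 hepatocyte markers with a probe the male median was 0.33 and the female median -0.08, with 0 called, and their part in the result was not tested. Every hypo pup lay above every control pup of its sex for 6 probes in males (1.50% of all probes) and 5 in females (0.849%), and 4 probes did so in both sexes (0.192%). Those 4 were both Gstp1 probes, the Gsta4 probe and 1 of the Mgst1 probes.

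**Figure D1:**
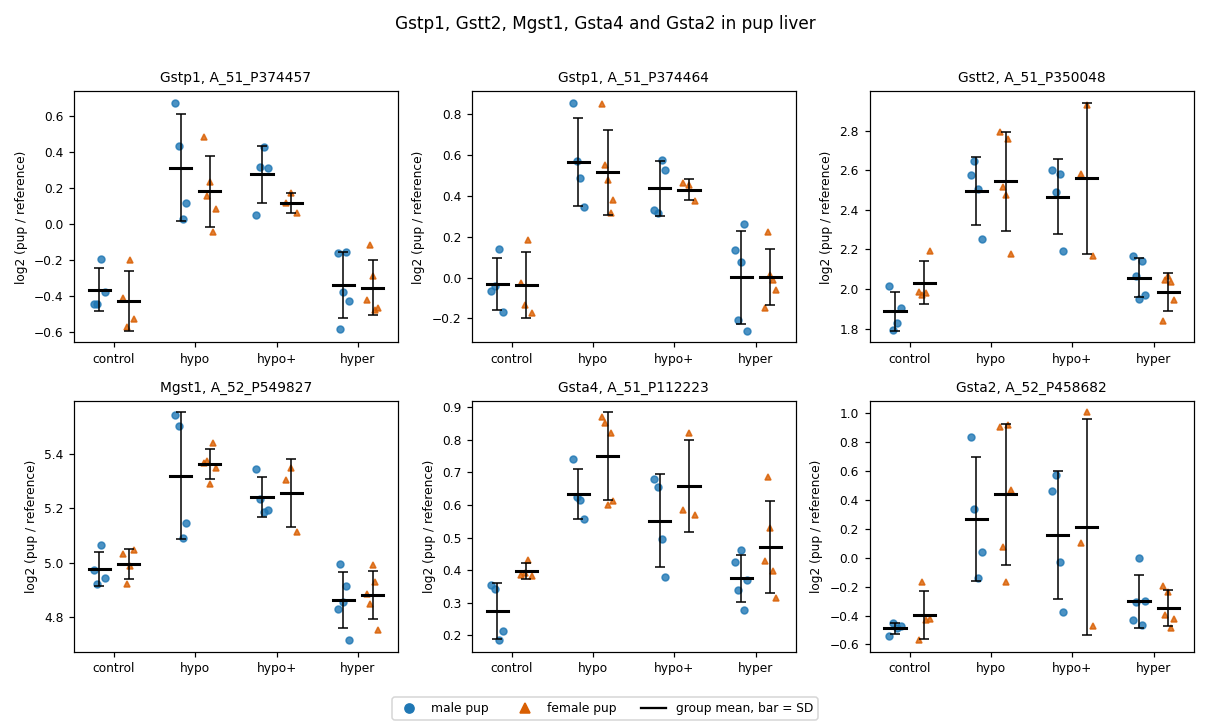
Log2 ratio of pup over reference (vertical axes) for 6 probes of Gstp1, Gstt2, Mgst1, Gsta4 and Gsta2 in each of the 34 pups, by treatment; circles are males, triangles females, lines the group means and bars the SD. All 16 hypo and hypo+ pups sit above all control and hyper pups for both Gstp1 probes and the Mgst1 probe, as do 14 of them for Gstt2, 11 for Gsta2 and 5 for Gsta4.

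Gstp1, the pi class enzyme, known for its abundance in many epithelia and tumours, was read by 2 probes. On probe A_51_P374457 the control females had log2 ratios of -0.57, -0.53, -0.41 and -0.20, and the hypo females -0.04, 0.08, 0.16, 0.23 and 0.49. Every hypo female was above every control female, and the difference was 0.61 ± 0.10 (SE; 1.53-fold; adjusted p = 0.0173). The control males had -0.45, -0.44, -0.38 and -0.19, and the hypo males 0.03, 0.12, 0.43 and 0.67. The groups did not overlap there either, but the difference of 0.68 ± 0.13 (1.60-fold) did not pass the threshold in males (adjusted p = 0.0713). Without the control female with acinar markers the female difference was 0.69 ± 0.10 (adjusted p = 0.0161).

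The second Gstp1 probe, A_51_P374464, gave the same order of groups. Control females had -0.17, -0.13, -0.03 and 0.19 and hypo females 0.32, 0.38, 0.48, 0.55 and 0.85, a difference of 0.55 ± 0.10 (1.47-fold; adjusted p = 0.0349). Control males had -0.17, -0.07, -0.04 and 0.14 and hypo males 0.35, 0.49, 0.57 and 0.86, a difference of 0.60 ± 0.12 (adjusted p = 0.0981). Again no hypo pup fell into the control range. Over the 34 arrays the probes correlated with r = 0.96, and with r = 0.86 after each group's mean was taken off, a description across arrays of 1 gene. Probe sequences were not used here, so a contribution of the near-identical Gstp2 to either probe was not tested. Among pups scanned in the same session, hypo pups averaged higher than control pups on A_51_P374457 in all 7 session and sex combinations that held both groups, by 0.43 to 1.12.

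Gstt2 and Gstt1 are theta class enzymes, and only Gstt2 was called. A difference between the responses of these genes was not tested. For Gstt2 (A_51_P350048) control males had log2 ratios of 1.79, 1.83, 1.91 and 2.02 and hypo males 2.25, 2.51, 2.57 and 2.65. The male groups did not overlap, and the difference of 0.61 ± 0.10 (1.53-fold) was called (adjusted p = 0.0191). With slide as a fixed block it was 0.62 ± 0.10 and with scan session as a fixed block 0.63 ± 0.10. Neither of these was called (adjusted p = 0.0531 and 0.0524). With slide as a random block it was 0.61 ± 0.09 and called (adjusted p = 0.00793). Control females had 1.97, 1.98, 1.98 and 2.19 and hypo females 2.18, 2.47, 2.51, 2.76 and 2.79, so that 1 hypo female lay just under the highest control female. The female difference was 0.51 ± 0.13 (adjusted p = 0.260). Without the 3 control pups with acinar markers the male difference was 0.53 ± 0.12 and no longer called (adjusted p = 0.345), with 2 control males left. Gstt1 had log2 ratios of 2.88 to 3.35 in control pups and 2.78 to 3.17 in hypo pups of both sexes, with differences of -0.15 ± 0.13 in males and -0.21 ± 0.13 in females (adjusted p = 1.00 in both).

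Mgst1, the microsomal enzyme, was read by 2 probes that did not give the same picture. On A_52_P549827 control females had 4.92, 4.99, 5.03 and 5.05 and hypo females 5.29, 5.35, 5.37, 5.37 and 5.44, and the difference of 0.37 ± 0.06 (1.29-fold) was called (adjusted p = 0.0131). Without the control female with acinar markers it was 0.36 ± 0.06 (adjusted p = 0.0448). Control males had 4.92, 4.94, 4.97 and 5.06 and hypo males 5.09, 5.14, 5.50 and 5.54. The male groups did not overlap, with 2 hypo males only just above the controls, and the difference was 0.34 ± 0.09 (adjusted p = 0.358). On the other probe, A_51_P287810, the female difference was 0.10 ± 0.11 and the male difference 0.33 ± 0.13 (adjusted p = 1.00 and 0.762), and the hypo and control ranges overlapped in both sexes. The 2 probes correlated over the 34 arrays with r = 0.59, and with r = 0.27 once group means were removed. Which transcript part each probe reads was not tested.

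Of the alpha class, Gsta4, known for conjugating 4-hydroxynonenal from oxidized lipids, was read by a probe printed 10 times on each array. The SD between its spots within an array had a median of 0.0461. Control males had log2 ratios of 0.18, 0.21, 0.34 and 0.35 and hypo males 0.56, 0.62, 0.62 and 0.74. Control females had 0.38, 0.38, 0.39 and 0.43 and hypo females 0.60, 0.61, 0.82, 0.85 and 0.87. All hypo pups were above all control pups in both sexes, by 0.36 ± 0.07 in males and 0.35 ± 0.08 in females (1.28-fold in both), yet neither passed the adjustment (adjusted p = 0.0777 and 0.117).

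Gsta2 showed the largest mean difference of the 12 probes in both sexes, with hypo pups spread widely. Control males had log2 ratios of -0.54, -0.49, -0.47 and -0.45 and hypo males -0.14, 0.04, 0.33 and 0.84, a difference of 0.76 ± 0.20 (adjusted p = 0.344). Control females had -0.57, -0.43, -0.42 and -0.17 and hypo females -0.17, 0.07, 0.47, 0.91 and 0.92, a difference of 0.84 ± 0.25 (adjusted p = 0.417). With the scanner's log ratio the Gsta2 differences were 1.22 in males and 1.39 in females. The female groups met at their ends (-0.17 in both) and the male groups did not overlap. Its Cy5 signals of 120.5 to 414 units were close to the negative control limits of 85.0 to 106, although the scanner marked the spot well above background on all 34 arrays. Signal from the near-identical Gsta1 was not tested. Gsta3, in contrast, was bright, and its 2 probes differed by 0.32 ± 0.17 and 0.22 ± 0.21 in males and by 0.04 ± 0.13 and -0.01 ± 0.16 in females. The hypo and control ranges overlapped on both Gsta3 probes in both sexes (adjusted p = 1.00 throughout).

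The zeta class enzyme Gstz1, which acts in tyrosine breakdown as maleylacetoacetate isomerase, and the omega class enzyme Gsto1, which reduces dehydroascorbate and arsenic compounds, were not called. Gstz1 ranged from 3.71 to 4.22 in control and from 3.60 to 4.48 in hypo pups, with differences of 0.17 ± 0.15 in males and -0.03 ± 0.13 in females. For Gsto1, control females had -0.33, -0.32, -0.19 and -0.16 and hypo females -0.14, -0.14, -0.02, 0.06 and 0.49, a difference of 0.30 ± 0.12 that did not survive adjustment (adjusted p = 0.830). In males the Gsto1 difference was 0.08 ± 0.14 and hypo pups reached from -0.49 to 0.22, on both sides of the controls.

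**Figure D2:**
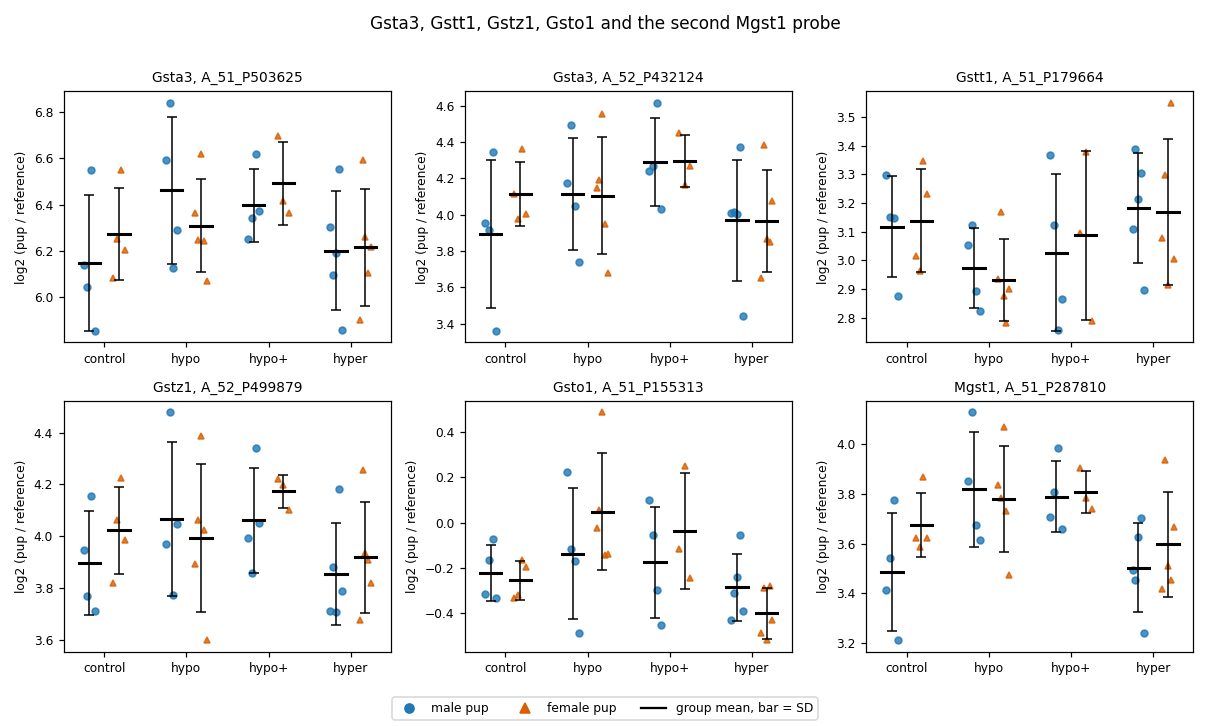
Log2 ratio of pup over reference (vertical axes) for both Gsta3 probes, Gstt1, Gstz1, Gsto1 and the second Mgst1 probe in each of the 34 pups, by treatment; circles are males, triangles females, lines the group means and bars the SD. Treatment groups overlap in most panels; the Gsto1 females, from -0.14 up in hypo pups and from -0.16 down in control pups, are the exception.

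The calls fell in different sexes, so the difference between the sexes was tested itself, in 1 limma fit of all 8 groups. For hypo against control, 0 of the 12 probes had an unadjusted p below 0.05 (1.04% of all probes did), and 0 passed adjustment. In the other comparisons 0 of the 12 probes reached that level either (1.26% of all probes for hyper, 1.33% for hypo+ against control and 2.11% for hypo+ against hypo). The female minus male difference was -0.10 for Gstt2 (95% interval -0.45 to 0.25), -0.07 for Gstp1 on A_51_P374457 (-0.41 to 0.28) and 0.02 for Mgst1 on A_52_P549827 (-0.20 to 0.24). These intervals leave room for sex differences of up to 0.45 on the log2 scale. The average of the male and female differences was then taken from the same fit, a summary added after the data had been seen. In it 6 probes of 5 genes were called for hypo against control, all higher (0.525% of all probes were called higher). They were Gsta2 (0.80 ± 0.17, adjusted p = 0.00930), Gstp1 (0.64 ± 0.08 and 0.58 ± 0.08, adjusted p = 3.07e-05 and 8.32e-05), Gstt2 (0.56 ± 0.09, adjusted p = 0.000241), Gsta4 (0.36 ± 0.05, adjusted p = 0.000200) and Mgst1 on A_52_P549827 (0.36 ± 0.05, adjusted p = 0.000217). Without the 3 control pups with acinar markers, Gsta2 dropped out of the average's calls (adjusted p = 0.0790) and the other 4 genes stayed called. Litter membership of the pups was not used, and brothers and sisters in 1 fit may not be independent.

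**Figure D3:**
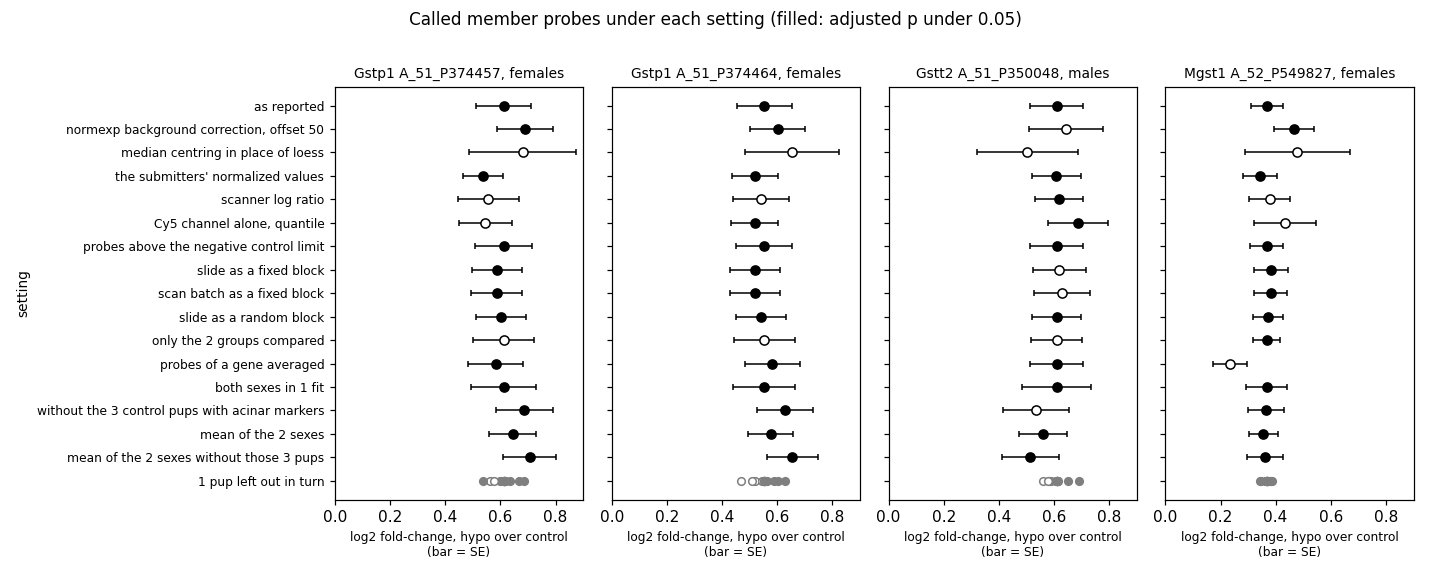
Log2 fold-change of hypo over control (horizontal axes) for the 4 called probe and sex combinations under each setting, with the SE as a bar and a filled point where the adjusted p was below 0.05; the bottom line holds 1 point for each pup left out in turn. All points lie above 0, from 0.24 for Mgst1 with its 2 probes averaged to 0.71 for Gstp1, while which of them are filled changes with the setting.

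Under median centring in place of loess none of the 9 genes was called, although the 4 called differences were 0.48 to 0.68. In males, where they were not called, Gstp1 on A_51_P374457 then differed by 0.44 and Mgst1 on A_52_P549827 by 0.19. Averaging the 2 Mgst1 probes gave 0.24 ± 0.06 in females (adjusted p = 0.253), and with only the hypo and control groups in the fit Mgst1 alone was called.

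The hypo+ pups were compared with control pups to see which differences were still there 4 h after the hormones were given. None of the 12 probes was called in either sex (0.0267% of all probes in males, 0.0219% in females), while 7 probes in males and 6 in females had an unadjusted p below 0.05, all higher (3.48% and 2.19% of all probes). Every hypo+ pup lay above every control pup for 6 probes in males (2.02% of all probes) and 4 in females (2.42%), and for 4 in both sexes (0.426%). The nearest to a call was Gstt2 in males, where hypo+ pups had 2.19, 2.49, 2.58 and 2.60, all above the controls (0.58 ± 0.10, adjusted p = 0.0509).

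The Gstp1 probe A_51_P374457 read 0.05, 0.31, 0.31 and 0.42 in hypo+ males and 0.06, 0.12 and 0.17 in hypo+ females. All 7 values exceeded the highest control value of their sex, with differences of 0.64 ± 0.13 and 0.54 ± 0.12 (adjusted p = 0.167 and 0.268). For Mgst1 on A_52_P549827 the differences were 0.26 ± 0.09 in males and 0.26 ± 0.07 in females, and for Gsta4 0.28 ± 0.07 and 0.26 ± 0.09. With median centring in place of loess the male differences were smaller and Mgst1 turned direction, at 0.19 for Gstp1 on A_51_P374457, 0.15 on A_51_P374464, 0.36 for Gstt2, 0.08 for Gsta4 and -0.04 for Mgst1. With slide as a fixed block the female differences were 0.15 for Gsta4, 0.30 for Gstt2 and 0.16 for Gsta2. Gsta2 values lay between -0.37 and 0.57 in hypo+ males and between -0.48 and 1.01 in the 3 hypo+ females, the latter wider than the whole control range. In the average of the sexes, 5 probes of 4 genes were called (0.481% of all probes were called higher): Gstp1 on both probes (0.59 ± 0.09 and 0.47 ± 0.09, adjusted p = 0.000604 and 0.00639), Gstt2 (0.55 ± 0.09, adjusted p = 0.00175), Gsta4 (0.27 ± 0.06, adjusted p = 0.0195) and Mgst1 on A_52_P549827 (0.26 ± 0.06, adjusted p = 0.0249). Without the 3 control pups with acinar markers, only Gstp1 of these 4 was called (0.65 ± 0.10 and 0.55 ± 0.10).

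Because hypo and hypo+ share their control pups, the direct comparison of hypo+ with hypo is the one that speaks to the injection. None of the 12 probes was called in males (0.369% of all probes were) or in females (0.556%), and 0 had an unadjusted p below 0.05 in either sex (9.18% and 7.76% of all probes). The differences lay between -0.23 and 0.19. For Gstt2 the difference was -0.03 in males (95% interval -0.23 to 0.17) and 0.02 in females (-0.29 to 0.32). For Gstp1 on A_51_P374457 it was -0.04 in males (-0.31 to 0.24) and -0.07 in females (-0.30 to 0.17), and for Gsta4 -0.08 (-0.23 to 0.07) and -0.09 (-0.28 to 0.09). The narrowest interval was that of Mgst1 on A_52_P549827 in females (-0.11, -0.24 to 0.02). These intervals leave room for a fall after the injection, down to their lower ends, and for a rise, up to their upper ends. The size of such a change against the hypo over control differences was not tested. Those differences rest on the same hypo pups and have errors of their own.

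**Figure D4:**
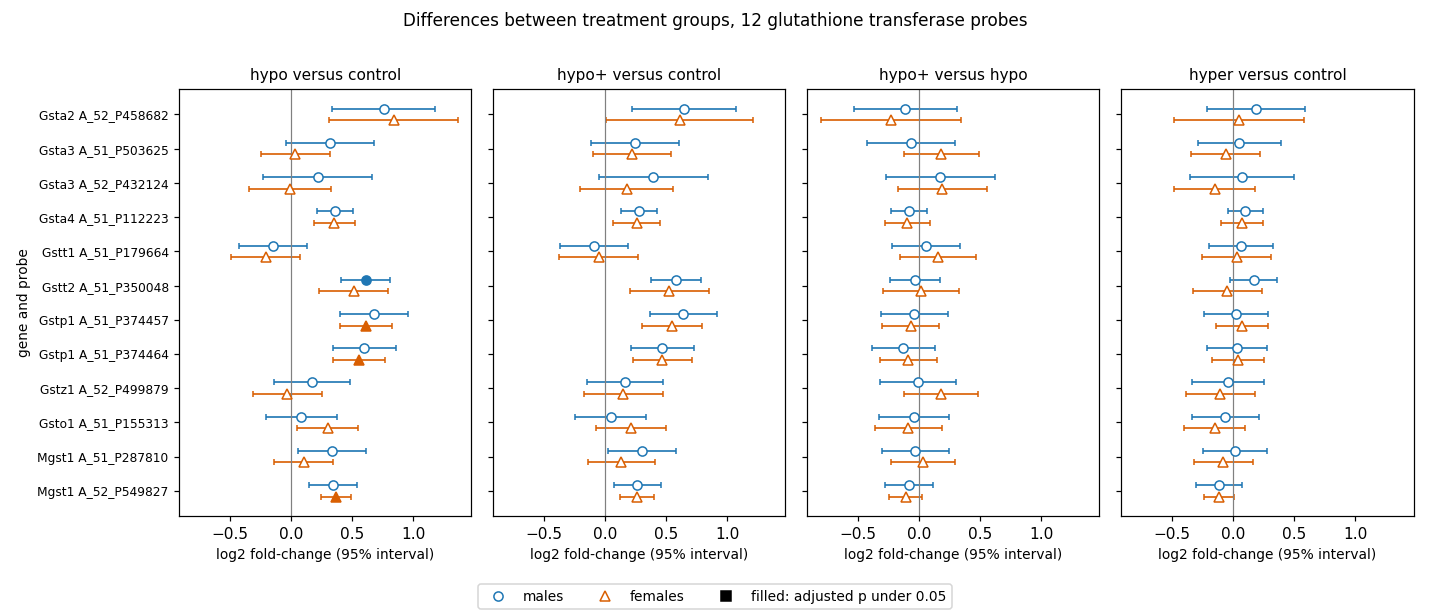
Log2 fold-changes (horizontal axes, with 95% intervals) of the 12 probes in 4 comparisons, males as circles and females as triangles, filled where the adjusted p was below 0.05. The 4 filled points are all in hypo versus control (Gstt2 in males, Gstp1 on both probes and Mgst1 in females), and the points for hypo+ versus hypo and hyper versus control lie around 0.

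The hyper pups, which received the higher hormone dose with no goitrogen, gave no called difference from control pups in these genes. None of the 12 probes was called (0.0753% of all probes in males, 0.158% in females) and 0 had an unadjusted p below 0.05 in either sex (2.97% and 6.16% of all probes did). In males the differences lay between -0.11 and 0.19, and those of females between -0.15 and 0.07. The Gstp1 probe A_51_P374457 read -0.58, -0.43, -0.38, -0.16 and -0.16 in hyper males and -0.48, -0.47, -0.42, -0.29 and -0.12 in hyper females, across the control range. Its difference was 0.02 in males (95% interval -0.24 to 0.29) and 0.07 in females (-0.14 to 0.29). For Mgst1 on A_52_P549827 the difference was -0.11 in males (95% interval -0.30 to 0.07) and -0.12 in females (-0.24 to 0.01). In the average of the sexes it was -0.11 (-0.22 to -0.007) and not called (limma, adjusted p = 0.638). The intervals of the other member probes in that average held 0.

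The other glutathione and antioxidant genes, taken from lists chosen with earlier results of these data known, are given beside the 0.345% of all named genes called in at least 1 sex. Of 15 further glutathione transferase genes with a probe, 2 rose in hypo pups in both sexes and 0 fell, namely the mu class genes Gstm1 and Gstm3. On probe A_51_P479311 Gstm1 rose by 1.50 ± 0.22 in males and 1.42 ± 0.12 in females (adjusted p = 0.0146 and 2.60e-05), and Gstm3 by 1.24 ± 0.17 and 1.18 ± 0.11 (adjusted p = 0.0124 and 6.41e-05). The median over that list was 0.13 in males and 0.20 in females. Among 28 genes of glutathione synthesis, recycling and peroxidation, 0 rose and 1 fell in each sex. It was Ggct, which cleaves gamma-glutamyl dipeptides, and it fell by 0.71 ± 0.12 in males and fell by 0.81 ± 0.12 in females (adjusted p = 0.0381 and 0.00923). Among 23 NRF2 targets outside glutathione metabolism, 3 were called higher in males (Aox1, Nqo1 and Srxn1) and 2 in females (Ephx1 and Srxn1), and 0 were called lower. Srxn1, which repairs oxidized peroxiredoxins, rose by 0.70 ± 0.12 in males and 0.65 ± 0.07 in females on its strongest probe (adjusted p = 0.0351 and 0.000484). Its other probes, A_51_P330125 and A_52_P593200, were not called (0.42 and 0.55 in males, 0.39 and 0.44 in females). Of 16 targets of the xenobiotic receptors CAR and PXR, 0 were called by limma in either sex. An unadjusted limma p below 0.05 was reached by 0 of them in males and 1 in females. In the NRF2 list above, 13 of 23 genes in males and 12 in females reached that level. Of all 41174 probes, 2140 in males and 1945 in females did so, in either direction. A difference between the lists was not tested.

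The named genes whose pattern over the 34 arrays was most like Gstp1 on A_51_P374457, the member probe whose larger adjusted p of the 2 sexes was the smallest, were Gstm1 (Pearson r = 0.89), Srxn1 (0.88), Gstm3 (0.87), the carboxylesterase Ces1f (0.87) and the epithelial keratin Krt18 (0.85). These values are descriptions over arrays that share treatments. After group means were removed they fell to between 0.38 (Gstm3) and 0.60 (Krt18).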

How the data were processed

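Liver RNA of 34 pups was hybridized to 2-colour Agilent arrays, 1 array per pup, with no dye swap. Per the file headers, Feature Extraction 10.1.1.1 made the scanner files, which hold spot intensities and the log10 ratio of red over green. The log2 ratios in the value table were normalized by the authors, with loess by their methods, and correlated with the values used here at r = 0.992 to 0.996. Here, median intensities of 41174 probes were loess-normalized within arrays with no background correction, outlier spots left out and spots of a probe averaged. limma 3.58.1 (R 4.3.3) was fitted separately in each sex with 4 groups, in place of the study's permutation-based F test, with Benjamini-Hochberg adjustment over all probes. Of the 41174 probes, 23374 were named through RefSeq accessions. Signals were well above background in Cy5 for 60.8% to 79.4% of probes per array, and for all 12 member probes on all 34 arrays, with 0 saturated. The number of pups limits the precision. All 12 member probes were named, and the most alike genes were picked by Pearson correlation. List genes were picked by the size of their change among those called for hypo against control in both sexes. Outside that rule, Aox1, Nqo1 and Ephx1 were named as called in 1 sex. Me1 and Osgin1 were named as called for hypo+ against hypo. Members, gene lists and tests were chosen with earlier results of these data known. Arrays that the study left out as outliers are not analysed here. The fit was tested on simulated data. Alternatives covered background correction, normalization, filtering, slide and scan session, the samples in the fit, averaging of probes and leaving out pups.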

Additional observations from a re-analysis of the deposited data

Results flagged for a closer look

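Single control females stood away from the other 3 pups of their group on 3 probes. For Gsta4, control female 831 read 0.43 against 0.38 to 0.39 in the others, a gap that is large only against a very small spread. For Gstt2, control female 882 read 2.19 against 1.97 to 1.98, and this value is the one that meets the lowest hypo female. For Mgst1 on A_51_P287810, control female 831 read 3.87 against 3.59 to 3.62, and the same pup is 1 of the 3 control pups with acinar markers (25351 units). Of 84 groups of 4 or 5 pups tested this way, chance alone marks about 1 in 20.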

How the results depend on the processing

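No paired analysis was possible because the pups carry individual numbers that are not shared between groups; slide and scan session were used as blocks instead. For hypo against control, 3 genes were called; the count was 0 with median centring, 1 with the scanner's log ratio (Gstt2), 1 with only the 2 compared groups in the fit (Mgst1), and 5 in the mean of the 2 sexes, an alternative added after the data were seen. For hypo+ against control, 0 genes were called in each sex, and 1 (Gstt2) with the submitters' values, with probes above the negative control limit, with slide as a random block and with probes averaged, 1 (Gstp1) with both sexes in 1 fit, 4 in the mean of the 2 sexes and 1 (Gstp1) in that mean without the 3 control pups with acinar markers. Leaving out 1 pup at a time gave 1 to 4 genes for hypo against control, 1 (Gstt2) without control female 523, and 0 to 1 for hypo+ against control, where Gstt2 was called without hypo male 891, without hypo male 576 and without hypo+ male 761. Counts for hypo+ against hypo, hyper against control and the sex interaction were 0 under every alternative run.

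Gstt2 in males kept its direction but not its call with normexp background correction (0.64), median centring (0.50) and only 2 groups (0.61). The same held with slide (0.62) or scan session (0.63) as a fixed block, and without the 3 acinar pups (0.53). With slide as a random block it stayed called (0.61). Gstp1 in females on A_51_P374457 lost its call with median centring (0.68), the scanner's log ratio (0.56), Cy5 alone (0.55) and only 2 groups (0.61), and on A_51_P374464 with median centring (0.65), the log ratio (0.54) and only 2 groups (0.55). Mgst1 in females lost its call with median centring (0.48), the log ratio (0.38), Cy5 alone (0.43) and averaged probes (0.24). Leaving out each pup gave 0.56 to 0.69 for Gstt2, with 12 of 17 fits called, the exceptions being without control males 881, 832 and 522 and hypo males 576 and 311. For Gstp1 it gave 0.54 to 0.69 (14 of 17, lost without control females 523, 394 and 882) and 0.47 to 0.63 (8 of 17, lost without the same 3 control females, hypo females 316 and 575, hyper females 621, 861 and 783 and hypo+ female 763), and for Mgst1 0.34 to 0.39 (16 of 17, the exception being without control female 523). The causes were not tested. No called difference changed sign. For probes not called, 45 alternative results passed the threshold in the same direction. Without passing it, 59 moved by at least the SD between pups and 2840 did not. These counts include the fits with 1 pup left out. A value averaged over sexes or probes is counted once for each sex or probe it covers. Under median centring the hypo+ difference of Mgst1 on A_52_P549827 in males was -0.04.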

Other observations

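The mu class genes Gstm1 and Gstm3 were the 2 of 15 further glutathione transferase genes called higher in hypo+ than in control pups, in males and in females (0.0267% and 0.0219% of all probes were called there in either direction), and 0 of the 15 were called for hyper against control or hypo+ against hypo in either sex. Among the 23 NRF2 targets outside glutathione, Me1 and Osgin1 rose in hypo+ against hypo pups in both sexes (0.369% and 0.556% of all probes were called), and 0 were called for hyper against control. In hypo against control pups these genes were lower and not called, Me1 by -0.42 in males and -0.46 in females. For Osgin1 the values were -0.36 and -0.71 on A_51_P189361 and -0.42 and -0.71 on A_52_P576854. The paper describes Me1 as a gene earlier shown to be under direct thyroid hormone control. By the study's own microarray test Me1 was significantly lower than control in hypo females, and not in hypo males.

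Summed marker signals ranged over the 34 arrays from 30403 to 62000 units for Kupffer cells and macrophages, 8145 to 12822 for cholangiocytes, 35382 to 120978 for erythroid cells and 25227 to 38963 for stellate, endothelial and lymphoid cells, and 0 genes of these lists were called in any comparison by limma.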
